A study of Homo sapiens with 6 samples.

Results

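Transcripts of 9 enzymes that build nucleotides were followed across 6 plating densities of MCF10A, a cell line from human mammary epithelium that does not form tumours. The 9 genes were taken by symbol: RRM1, RRM2, TYMS, TK1 and DUT act on deoxynucleotides, CAD and UMPS make pyrimidine rings, and PAICS and GART make purine rings. They are 9 of 19775 genes on the arrays and were measured by 30 of 54613 probe sets, a probe set being a group of short probes against the same transcript. Dishes of 35 mm received between 50K and 800K cells, a 16-fold range with 100K, 200K, 400K and 600K between, and RNA was taken after 24 h. All dishes had the same medium with insulin (10 μg/ml), EGF (20 ng/ml), cholera toxin (100 ng/ml), hydrocortisone (0.5 μg/ml), gentamicin (100 μg/ml) and horse serum (5%). There was 1 array for each density and no replicate, so each error rests on how far the 6 arrays lay from a fitted line. Each value is relative to the same probe set on the 50K array, where it is 1 by construction, and no level of expression is known.

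Cells make nucleotides from small precursors (de novo synthesis) or reuse bases and nucleosides (salvage). Ribonucleotide reductase, a complex of the large subunit RRM1 with a small subunit, turns ribonucleotides into deoxynucleotides, the building blocks of DNA. Thymidylate synthase (TYMS) and thymidine kinase 1 (TK1) supply thymidylate by the de novo and the salvage route, and the dUTPase DUT keeps uracil out of DNA. Several of these genes, above all RRM2 and TK1, are known to be transcribed mainly in S phase, under E2F and CCAAT-binding factors. In RNA of a whole dish, fewer cells with a transcript and less of it per cell cannot be told apart.

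The promoters of RRM2, TK1, TYMS and DUT are shown because these deoxynucleotide genes hold repeated CCAAT boxes or E2F motifs close to an annotated start. The sequences are the 250 bases before a RefSeq start (GRCh38.p14), 5′ to 3′ on the gene's strand, and capitals mark CCAAT or its complement in RRM2 and TK1 and an E2F motif in TYMS and DUT. For RRM2, TK1 and DUT, which have several annotated starts, the window with most of the marked motifs was taken after the search, and which start MCF10A cells use was not measured.
RRM2, chr2:10122489-10122738, plus strand: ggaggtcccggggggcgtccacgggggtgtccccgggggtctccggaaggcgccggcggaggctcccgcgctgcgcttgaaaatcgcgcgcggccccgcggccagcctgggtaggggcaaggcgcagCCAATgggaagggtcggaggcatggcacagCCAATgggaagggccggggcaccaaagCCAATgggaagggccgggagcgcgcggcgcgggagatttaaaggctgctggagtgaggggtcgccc
TK1, chr17:78187053-78187302, minus strand: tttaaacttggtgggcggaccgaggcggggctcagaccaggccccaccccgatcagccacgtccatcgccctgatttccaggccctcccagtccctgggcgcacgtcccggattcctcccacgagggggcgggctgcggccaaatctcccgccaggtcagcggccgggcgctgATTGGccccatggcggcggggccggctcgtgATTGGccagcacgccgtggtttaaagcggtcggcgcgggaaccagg
TYMS, chr18:657403-657652, plus strand: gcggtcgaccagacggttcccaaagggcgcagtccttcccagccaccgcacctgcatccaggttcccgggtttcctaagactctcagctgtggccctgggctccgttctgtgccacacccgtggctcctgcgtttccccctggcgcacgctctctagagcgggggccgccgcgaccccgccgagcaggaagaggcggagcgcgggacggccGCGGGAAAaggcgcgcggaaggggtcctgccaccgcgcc
DUT, chr15:48331947-48332196, plus strand: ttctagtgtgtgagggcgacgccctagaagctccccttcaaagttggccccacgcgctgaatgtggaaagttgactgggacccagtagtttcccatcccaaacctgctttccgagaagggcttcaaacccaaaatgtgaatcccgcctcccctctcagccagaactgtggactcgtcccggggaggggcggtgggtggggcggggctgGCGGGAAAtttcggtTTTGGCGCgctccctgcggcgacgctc

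The RRM2 window holds 3 CCAAT boxes, whose first bases lie 123, 93 and 66 bases before the start, each followed by the same short run of bases. At least 3 CCAAT boxes on either strand were found in 2.93% of all 35116 windows of this length. The TK1 window holds 2, starting at 77 and 46 bases before the start and both on the opposite strand, and 9.53% of windows hold at least 2. These shares count single windows, whereas the RRM2 and TK1 windows were picked from several as those with most CCAAT boxes. E2F motifs were searched on both strands as TTTCCCGC, TTTCGCGC, TTTGCCGC or TTTGGCGC. The TYMS window has 1, which begins 39 bases before the start, and the DUT window has 2, at 42 and 27 bases. Over all their annotated starts 3 of the 9 genes (TYMS, DUT and GART) held such a motif, as did 3.4% of 27305 genes. A gene with several starts, such as DUT or GART, has more windows in which to match. The number of starts was not matched in the shares over genes given here. A CCAAT box was found in 5 of the 9 (RRM1, RRM2, TK1, CAD and GART) and in 37% of genes, and the GC box GGGCGG in 7 of the 9, all but TYMS and UMPS, and in 46.2%. The E-box CACGTG was found in 0 of the 9 and in 7.73% of genes. GART, too, has windows with 3 CCAAT boxes. These matches describe the letters of the windows only.

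The transcripts of the deoxynucleotide enzymes were lower in dense than in sparse dishes, and those of RRM2 and TK1 far more than the rest. RRM2 was 6.20-fold and TK1 3.34-fold lower at 800K than at 50K, DUT, RRM1 and TYMS were between 1.60-fold and 1.77-fold lower, CAD, PAICS and UMPS between 1.27-fold and 1.35-fold lower, and GART 1.06-fold lower. The slope of a gene is the change of its log2 ratio when the number of plated cells doubles, fitted with limma over all genes. By this slope 7 of the 9 fell (adjusted p under 0.05), none rose, and UMPS and GART did not pass. Of all genes tested, 12.4% fell and 8.93% rose. The median slope was −0.16 over the 9 genes and 0.0045 over all genes. With 1 array left out, between 2 and 7 of the 9 fell, and the count was 3 without 100K, 2 without 600K and 2 without 800K.

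**Figure D1:**
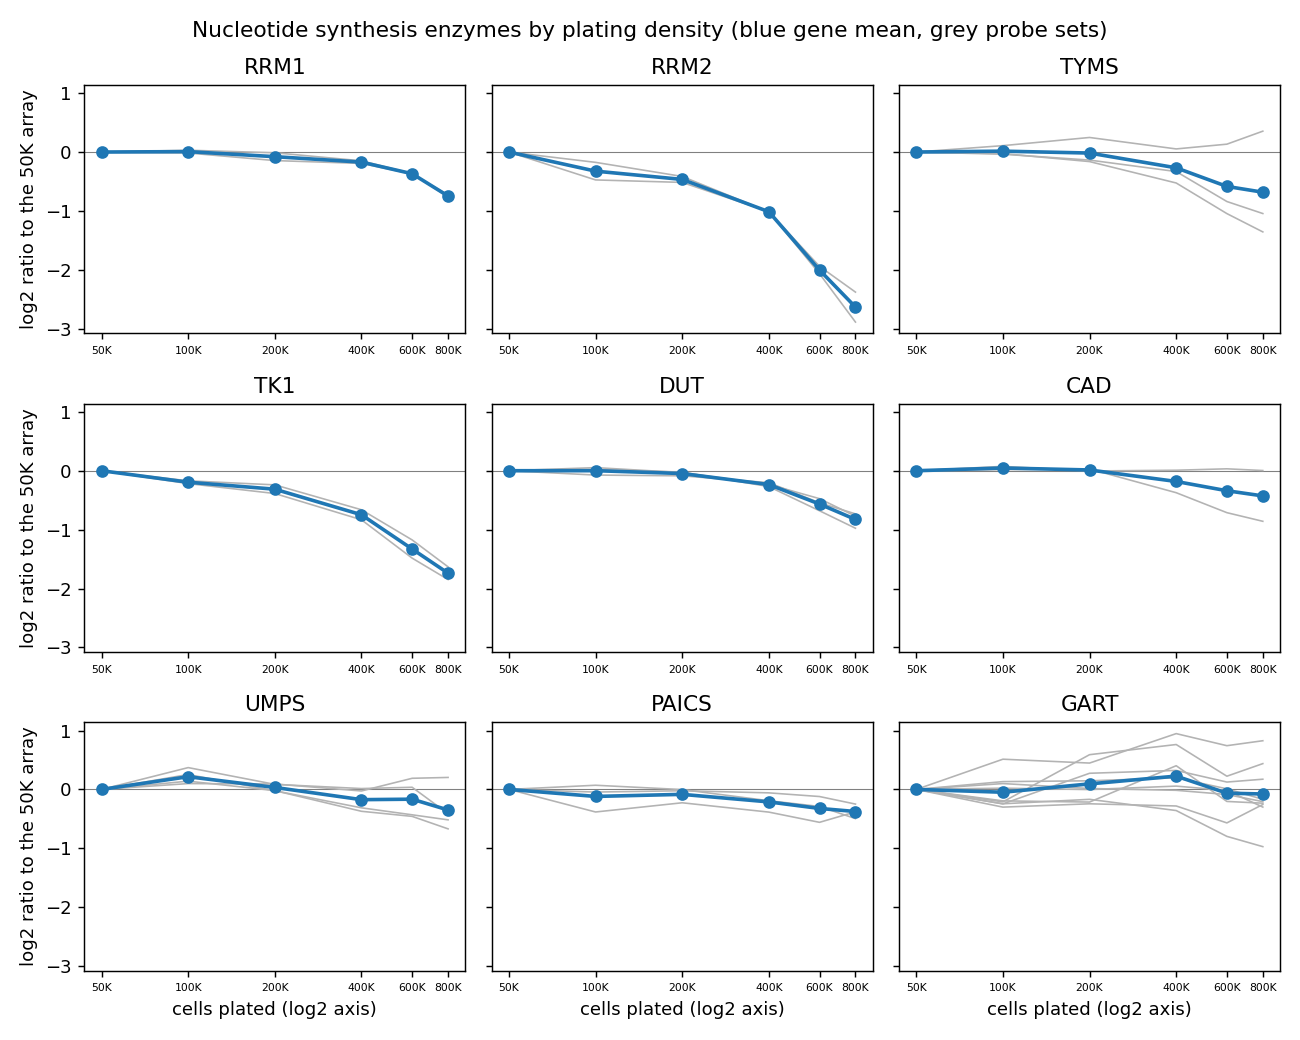
Log2 ratio to the 50K array against the cells plated (log2 axis) for each of the 9 genes; blue points are gene means over probe sets and grey lines single probe sets, with 1 array per density. RRM2 and TK1 reach −2.63 and −1.74 at 800K, and the 9 probe sets of GART spread on both sides of 0.

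RRM2, the small subunit of ribonucleotide reductase that is made in dividing cells, had ratios of 1, 0.799, 0.724, 0.495, 0.249 and 0.161 from 50K to 800K, in the order of the 6 densities. It was lower on each denser array, and the steps were largest above 400K. Its slope was −0.61 ± 0.11 (SE, 6 arrays; limma adjusted p = 0.0124), the 32nd most negative of 19775 genes. The slope passed with any 1 of the 6 arrays left out (adjusted p between 0.014 and 0.0476), but not when the 3 highest densities were set against the 3 lowest (adjusted p = 0.0558). Its 2 probe sets gave ratios of 0.135 and 0.192 at 800K, and both fell (adjusted p = 0.0293 and 0.0181 over all probe sets).

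RRM1, the large subunit that binds the substrates, had ratios of 1, 1.00, 0.947, 0.888, 0.775 and 0.596 from 50K to 800K. It stayed between 0.947 and 1.00 up to 200K, and 77.1% of its log2 fall lay between 400K and 800K. The slope was −0.16 ± 0.04 (limma adjusted p = 0.0493). That call was lost without any array but 400K, with adjusted p of 0.0679 without 50K, 0.129 without 100K, 0.0688 without 200K, 0.101 without 600K and 0.0752 without 800K. Both probe sets had the same course (0.588 and 0.604 at 800K), and neither passed over all probe sets (adjusted p = 0.0987 and 0.0593). The subunits differed: the slope of RRM2 was 0.46 ± 0.09 below that of RRM1 (exact permutation of the densities, adjusted p = 0.0281 over 36 pairs of the 9 genes), and RRM2 relative to RRM1 stood at 0.271 at 800K, where it was 1 at 50K.

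TK1, the cytosolic kinase that salvages thymidine, had ratios of 1, 0.874, 0.805, 0.595, 0.398 and 0.299 from 50K to 800K. Like RRM2 it was lower on each denser array. Its slope was −0.41 ± 0.07 (limma adjusted p = 0.00953), the 117th most negative of all genes, and it passed with any 1 array left out (adjusted p up to 0.0399). Both probe sets fell, to 0.278 and 0.323 at 800K.

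TYMS, the only enzyme that makes thymidylate de novo, had gene ratios of 1, 1.01, 0.988, 0.830, 0.667 and 0.623 from 50K to 800K, with a slope of −0.18 ± 0.04 (limma adjusted p = 0.0226). This mean joins probe sets that disagree. Probe sets 1554696_s_at and 202589_at fell to 0.391 and 0.485 at 800K (adjusted p = 0.0258 and 0.0344 over all probe sets), while 217684_at stood at 1.28 and did not pass (adjusted p = 0.358). The call for the gene was lost without 100K (adjusted p = 0.0744), 600K (0.0741) or 800K (0.0919) and, at a slope of −0.10, without probe sets whose identifiers end in _x_at or _s_at, which can bind related transcripts (adjusted p = 0.0702). The slope of TK1 was 0.23 ± 0.04 below that of TYMS (exact permutation, adjusted p = 0.0281), a comparison that includes 217684_at.

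DUT, the dUTPase that also makes the substrate of TYMS, had ratios of 1, 1.00, 0.968, 0.850, 0.676 and 0.564 from 50K to 800K. As for RRM1, most of its fall (71.6% on the log2 scale) lay between 400K and 800K. The slope was −0.19 ± 0.05 (limma adjusted p = 0.0303), and the call was lost without 100K (adjusted p = 0.0914), 600K (0.0905) or 800K (0.0902), and with the 3 highest densities set against the 3 lowest (0.069). Its 3 probe sets agreed in course and stood between 0.508 and 0.602 at 800K, although only 208956_x_at passed over all probe sets (adjusted p = 0.0486).

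CAD, the trifunctional protein that carries out the first steps of pyrimidine synthesis, had gene ratios of 1, 1.03, 1.01, 0.881, 0.790 and 0.743 from 50K to 800K. Expression was not lower at 100K or 200K than at 50K. The slope was −0.11 ± 0.03 (limma adjusted p = 0.0296), with the call lost without 100K (adjusted p = 0.0862), 600K (0.0925) or 800K (0.118). Probe set 202715_at fell to 0.551 at 800K (adjusted p = 0.0409 over all probe sets), and 1564084_at stayed between 0.997 and 1.05 on all arrays. The gene mean therefore has a smaller fall than 202715_at alone.

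UMPS, the bifunctional enzyme that completes UMP, had ratios of 1, 1.16, 1.02, 0.886, 0.891 and 0.785 from 50K to 800K. It was highest at 100K, and its slope of −0.10 ± 0.03 did not pass (limma adjusted p = 0.08). Without the 50K array the slope was −0.17 and passed (adjusted p = 0.0137). Probe set 215165_x_at fell to 0.629 at 800K (adjusted p = 0.0351 over all probe sets). Probe sets 202706_s_at and 202707_at stood at 0.699 and 0.751 and did not pass (adjusted p = 0.0521 and 0.373), nor did 239800_at, at 1.15.

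PAICS, a bifunctional enzyme of the middle of purine synthesis, had ratios of 1, 0.921, 0.943, 0.863, 0.799 and 0.771 from 50K to 800K. Its slope was −0.088 ± 0.017 (limma adjusted p = 0.0164) and its decline was spread over the range more evenly than those above, with 43.5% of the log2 fall after 400K. The call was lost without 50K (adjusted p = 0.0709), 600K (0.0598) or 800K (0.0759), with the 3 highest densities set against the 3 lowest (0.0558) and without _x_at and _s_at probe sets (0.135). None of its 3 probe sets passed alone, with ratios between 0.709 and 0.842 at 800K.

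GART, the trifunctional enzyme of early purine synthesis, had gene ratios of 1, 0.967, 1.07, 1.17, 0.957 and 0.948 from 50K to 800K and a slope of −0.0014 ± 0.033 (limma adjusted p = 0.986; 95% interval −0.08 to 0.08). Its 9 probe sets did not share a direction. Probe set 210005_at fell to 0.510 at 800K (adjusted p = 0.0353 over all probe sets), 244822_at rose to 1.77 (adjusted p = 0.0433), and the other 7 did not pass. Of these, 212378_at, designed on a RefSeq transcript, had a ratio of 0.890 at 800K and 1.15 at 400K. The arrays thus give no single course for GART.

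Over all 30 probe sets of the 9 genes, 10 fell, 1 rose and 19 did not pass, while 7.96% of all probe sets fell and 5.94% rose. Of the 30, 25 had a slope below 0, and over all genes 8191 of 19775 had one. The annotation gives a RefSeq transcript as design sequence for 7 of the 30, and all 7 had a slope below 0 (median −0.15). Of these 7, 3 fell. The shares with a slope below 0 over all probe sets, or over all those designed on RefSeq, are not given here.

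**Figure D2:**
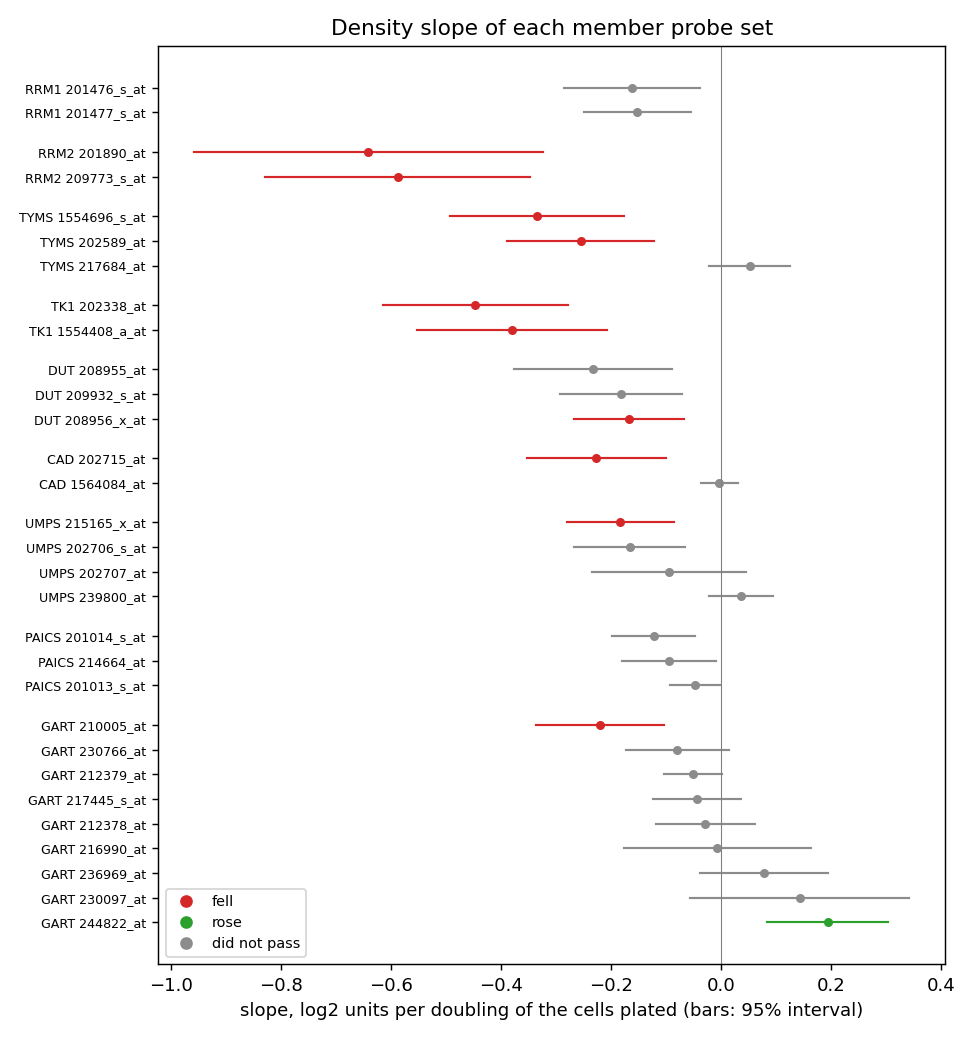
Slope per doubling of the cells plated for each of the 30 probe sets, in log2 units, with 95% intervals; red passed and fell, green passed and rose, grey did not pass. Slopes run from −0.64 (RRM2 201890_at) to 0.19 (GART 244822_at).

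The fall was not spread evenly over the doublings of density. At 200K RRM2 and TK1 stood at 0.724 and 0.805, and the other 7 genes between 0.943 and 1.07. From 400K to 800K, which is a single doubling, RRM2 changed by −1.62, TK1 by −0.99, DUT by −0.59, RRM1 by −0.58, TYMS by −0.41 and GART by −0.30 log2 units, and CAD, UMPS and PAICS by between −0.25 and −0.16. For 8 of the 9, all but GART, the values at 400K, 600K and 800K all lay below those at 50K, 100K and 200K, as they did for 17.9% of all genes. The quadratic term of the fit was negative for all 9, and its median over all genes was also below 0 (−0.019). In a gene that falls, a negative term means a fall that steepens, whereas GART had no such fall and was highest at 400K. For 7 of the 9, all but PAICS and GART, the quadratic term had an unadjusted p under 0.05, with values between −0.81 (RRM2) and −0.20 (CAD). Of all genes, 6.8% had a negative term with such a p. After adjustment 0 of 19775 genes (0%) passed in limma, and 2496 had an unadjusted p under 0.05 in either direction. The adjusted p of the 9 lay between 0.165 and 0.75, so the bend was not established for any single gene.

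Differences between the 9 genes were tested on all 36 pairs with exact permutations of the 6 densities (720 orders), and 19 pairs passed after adjustment. RRM2 and TK1 each differed from all 8 others (adjusted p between 0.0281 and 0.0389), and the slope of RRM2 was 0.20 ± 0.05 below that of TK1 (adjusted p = 0.0389). The remaining 4 pairs that passed set DUT, TYMS and RRM1 below GART and TYMS below CAD. No difference was detected among RRM1, TYMS and DUT (adjusted p between 0.157 and 0.588), where slopes differed by at most 0.037 ± 0.019. None was detected among CAD, UMPS and PAICS either (adjusted p between 0.334 and 0.76). When RRM1, TYMS and DUT were set against CAD, UMPS and PAICS, only TYMS and CAD differed (adjusted p = 0.0421). The other pairs between them did not pass (adjusted p between 0.0614 and 0.342). The means of TYMS and CAD each include a probe set that did not fall, 217684_at and 1564084_at. Their probe sets designed on RefSeq transcripts had slopes of −0.26 (TYMS 202589_at) and −0.23 (CAD 202715_at), and that difference was not tested. Without the probe sets ending in _x_at or _s_at, which leaves RRM1 with none, 12 of 28 pairs passed. On average the log2 ratio at 800K was −1.33 for the 5 deoxynucleotide enzymes, −0.39 for CAD and UMPS and −0.23 for PAICS and GART. The first mean holds RRM2 (−2.63) and TK1 (−1.74), while DUT, RRM1 and TYMS lay between −0.83 and −0.68. The second holds CAD, whose probe sets disagreed, and the last holds GART, whose probe sets did not share a direction. Differences between these means were not tested.

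RRM2B, the small subunit of ribonucleotide reductase that is induced by p53 and serves cells outside S phase, took the opposite course to RRM2. It was measured by 1 probe set, with ratios of 1, 0.980, 1.16, 1.62, 1.59 and 1.60 from 50K to 800K, and its slope was 0.21 ± 0.03 (limma adjusted p = 0.00953). Its 95% interval of 0.13 to 0.29 lay apart from that of RRM2, −0.88 to −0.35, and the slope passed with any 1 array left out. RRM2B was level from 400K on, whereas RRM2 kept falling. TK2, the mitochondrial thymidine kinase, had ratios of 1, 0.922, 1.01, 1.10, 1.23 and 1.24 and a slope of 0.10 ± 0.02 (limma adjusted p = 0.0391), against −0.41 for TK1. The call of TK2 was lost without any array but 50K (adjusted p up to 0.145, without 800K). Both genes were singled out after their values were seen, and their differences from RRM2 and TK1 were not tested beyond these intervals.

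PAICS lies next to PPAT, the amidotransferase of the committed step of purine synthesis, on the opposite strand, with annotated starts close together. PPAT had ratios of 1, 0.954, 0.892, 0.644, 0.597 and 0.627 from 50K to 800K and fell with a slope of −0.21 ± 0.03 (limma adjusted p = 0.00772), beside −0.088 for PAICS. The difference between these neighbours was not tested. GART likewise lies next to SON, an RNA splicing protein, which did not pass (slope −0.022, limma adjusted p = 0.577).

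**Figure D3:**
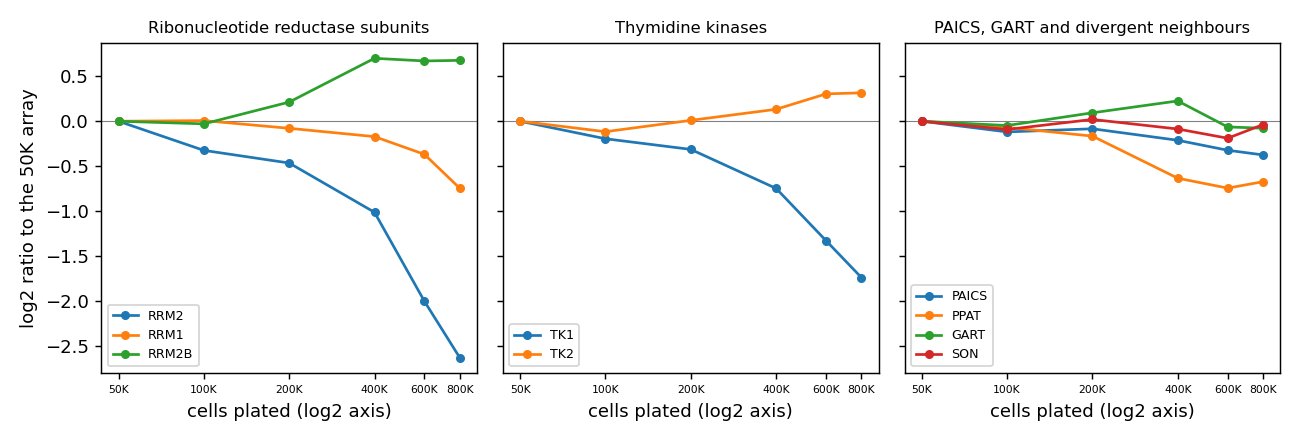
Log2 ratio to the 50K array against the cells plated (log2 axis), 1 array per density. Left, RRM2 and RRM1 fall while RRM2B ends at 0.68; middle, TK1 ends at −1.74 and TK2 at 0.32; right, PAICS and GART with their neighbours PPAT and SON.

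The other genes of nucleotide metabolism were taken from lists of enzymes and transporters, of which 56 genes were measured: 19 fell, 6 rose and 31 did not pass, with a median slope of −0.052. Over all genes 12.4% fell and 8.93% rose, with a median slope of 0.0045, and the count of list genes that rose is near that share. Without 100K, 600K or 800K, 13, 12 and 12 of them fell, and 4, 3 and 3 rose. In de novo purine synthesis 6 of 10 genes fell and none rose (median slope −0.10), with 4 falling without 50K, 100K, 600K or 800K. PPAT, described above, was among them. PRPS1, which makes the activated ribose that starts the route, was at 0.438 at 800K (slope −0.31 ± 0.05, limma adjusted p = 0.0083), and PFAS, which acts between the steps of GART, at 0.528 (−0.23 ± 0.03, adjusted p = 0.00743). PRPS2, ATIC and IMPDH1 also fell, to 0.702, 0.835 and 0.768, and these calls were lost without 50K for IMPDH1 (adjusted p = 0.0676), without any array but 50K for ATIC (up to 0.155) and without 50K, 100K, 600K or 800K for PRPS2 (up to 0.107). ADSL and GMPS did not pass, nor did IMPDH2, at 1.33 at 800K, and ADSS1, at 2.57 at 800K and 1.31 at 600K.

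CTPS1, the enzyme that turns UTP into CTP, had lower ratios than CAD and UMPS in dense dishes. It had ratios of 1, 0.936, 0.802, 0.524, 0.370 and 0.345 from 50K to 800K and a slope of −0.42 ± 0.05 (limma adjusted p = 0.00495), near that of TK1. DHODH, CTPS2 and CMPK1, the other genes of that list, did not pass, and the difference between CTPS1 and CAD was not tested.

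Among 10 further genes of deoxynucleotide supply 4 fell, 2 rose (RRM2B and TK2) and 4 did not pass (median slope −0.077). Of all genes, 12.4% fell and 8.93% rose. DCK, the deoxycytidine kinase of salvage, was at 0.411 at 800K (slope −0.28 ± 0.06, limma adjusted p = 0.0227), and DCTPP1, which clears dCTP, at 0.575 (−0.23 ± 0.05, adjusted p = 0.0293). Their calls were lost without 100K, 600K or 800K, and that of DCK without 50K too (adjusted p up to 0.0911 for DCK and 0.115 for DCTPP1). Without 600K or 800K 1 of the 10 fell, and with the 3 highest densities set against the 3 lowest 2 fell.

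Folate enzymes, which hand carbon units to GART, ATIC and TYMS, did not stand apart by their counts: 1 of 7 fell, 1 rose and 5 did not pass (median slope −0.013), near the shares of 12.4% falling and 8.93% rising over all genes. The folate carrier SLC19A1 fell to 0.526 at 800K (slope −0.26 ± 0.05, limma adjusted p = 0.0158), with adjusted p of 0.059, 0.055 and 0.0669 without 100K, 600K or 800K. SHMT2, the mitochondrial serine hydroxymethyltransferase, rose, with ratios of 1.39, 1.65 and 1.35 at 400K, 600K and 800K (slope 0.17 ± 0.04, adjusted p = 0.0386, and up to 0.111 with 1 array left out).

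In nucleoside salvage and uptake 3 of 12 genes fell, 2 rose and 7 did not pass (median slope 0.0055), where 12.4% of all genes fell and 8.93% rose, so the list's counts say little beyond its single genes. CDA, the cytidine deaminase, had ratios of 1, 0.620, 0.446, 0.235, 0.261 and 0.231 from 50K to 800K (slope −0.54 ± 0.05, limma adjusted p = 0.00226). The nucleoside transporter SLC29A1 was at 0.286 at 800K (−0.49 ± 0.05, adjusted p = 0.00321). CDA had reached its low level by 400K, before most of the fall of RRM2. Of 13 genes of nucleotide breakdown 4 fell, 1 rose and 8 did not pass (median slope 0.017), beside the same shares over all genes. With the 3 highest densities set against the 3 lowest 1 of the 13 fell and 1 rose, and on the number of cells itself 2 fell and 2 rose. NT5E, the ecto-enzyme that makes adenosine, was at 0.382 at 200K and 0.293 at 800K (slope −0.43 ± 0.06, adjusted p = 0.00527), and the guanine deaminase GDA at 0.471 and 0.337 (−0.34 ± 0.05, adjusted p = 0.00656).

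**Figure D4:**
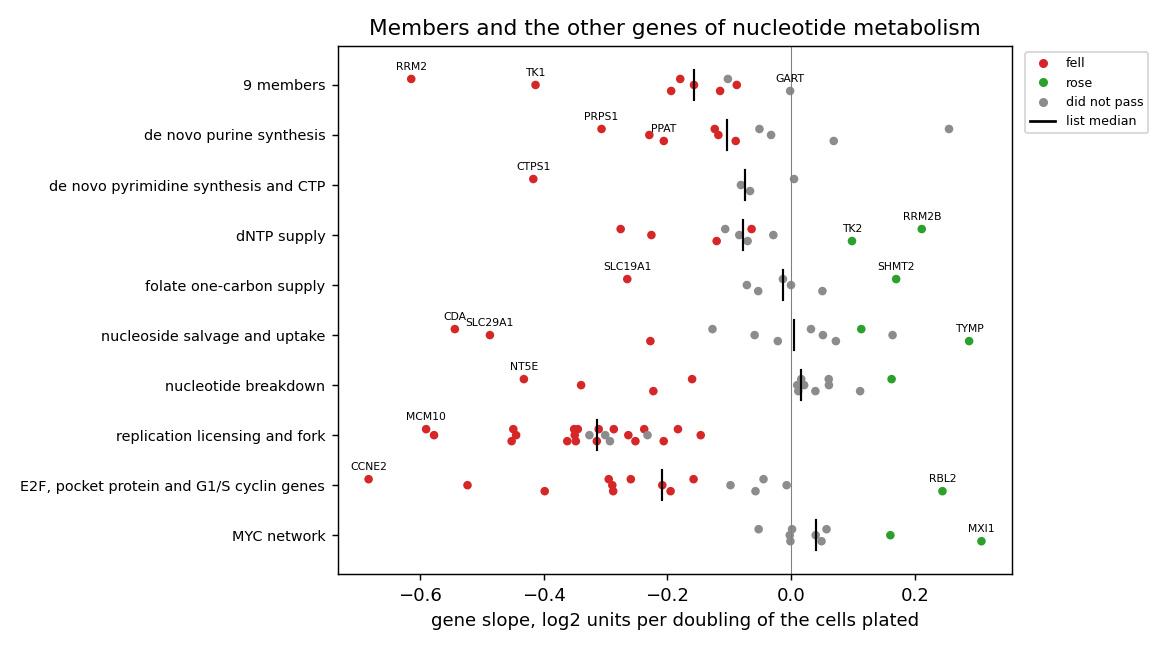
Gene slopes in log2 units per doubling of the cells plated for the 9 genes and the lists of related genes; red passed and fell, green passed and rose, grey did not pass, and black bars are list medians. RRM2 (−0.61) lies beside MCM10 (−0.59) and CDC6 (−0.58), and RRM2B and TK2 lie on the other side of 0.

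Replication genes, which use the deoxynucleotides, were mostly lower in dense dishes. Of 23 genes of replication licensing and the fork 19 fell and none rose, where 12.4% of all genes fell and 8.93% rose. The median slope of the 23 was −0.31, and their ratios at 800K lay between 0.190 and 0.723. Without 100K, 600K or 800K 5, 5 and 7 of them fell, and with the 3 highest densities set against the 3 lowest 10 fell. MCM10 and CDC6 had the steepest slopes, −0.59 and −0.58, close to the −0.61 of RRM2, and lost their calls without 100K, 600K or 800K. Of 15 genes of E2F factors, pocket proteins and cyclins of S phase entry 10 fell, 1 rose and 4 did not pass (median slope −0.21), led by CCNE2 (−0.68 ± 0.11, limma adjusted p = 0.00901) and E2F8 (−0.52 ± 0.09, adjusted p = 0.0102). In the network of MYC, a factor known to drive CAD and purine genes, 0 of 9 genes fell and 2 rose, counts near the shares over all genes (12.4% and 8.93%). Those that rose were the MYC antagonists MXI1, at 2.37 at 800K (0.31 ± 0.04, adjusted p = 0.00403), and MNT, at 1.51 (0.16 ± 0.02, adjusted p = 0.00321). MYC itself had ratios between 1.08 and 1.24 above 50K and did not pass (adjusted p = 0.136).

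Genes whose course was closest to the mean of the 9 were found by the root mean square difference of the log2 ratios over the 5 arrays other than 50K. The mean of the 9 was at 0.935 for 200K, 0.807 for 400K and 0.546 for 800K. The 6 closest genes were EIF4G1, MRM2, ELP5, SLC22A5, CSE1L and NUP107, with differences between 0.034 and 0.053 log2 units and ratios between 0.510 and 0.568 at 800K.

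Signs of RNA quality and of other cells were read beside these results. The log2 ratio of 3′ to 5′ control probe sets, relative to 50K, was between −0.047 and 0.072 for GAPDH on all arrays. For ACTB, however, it read 0.17 for 400K, 0.22 for 600K and 0.30 for 800K. On these arrays all of the 9 genes but GART were lowest. Of 6 reference genes GAPDH, PPIA, B2M and GUSB did not pass, TBP fell to 0.571 and ACTB to 0.854 at 800K (adjusted p = 0.0143 and 0.0361 in limma, and up to 0.0541 and 0.142 with 1 array left out). Of the markers of mammary basal epithelium KRT5, KRT14 and CDH3 rose and ITGA6 fell, and KRT17 and TP63 were not analysed here. Of 7 luminal markers GATA3 rose and the others did not pass. Ratios cannot show whether a marker is present, so the labelled cell type could not be checked against its markers. Among 7 fibroblast, 5 endothelial and 4 leukocyte markers 1, 2 and 1 rose and none fell. Of all genes, 8.93% rose and 12.4% fell. The ratios of these markers at 800K were 0.907 to 1.28, 1.01 to 1.73 and 1.02 to 5.66, the last for CD14. The calls of ITGA6 and of DCN, PECAM1 and KDR, which rose, were lost without at least 4 of the arrays, while CD14 passed without any 1 of them. The part of any of these in the changes of the 9 genes was not tested.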

How the data were processed

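Per the labels' protocols, RNA of 6 MCF10A cultures was extracted with phenol and chloroform, and 200 ng went onto each HG-U133 Plus 2 array (Affymetrix). The deposited values are linear ratios to the 50K array, per the values themselves, since all 54675 of that array equal 1 within 1e-06. RMA is the tool in the submitters' processing notes, and its version and the division by 50K are not stated there. Intensities, and thus signal over background, are unknown, so a fall that reached the background would be understated.

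The authors' ratios were taken to log2. The platform annotation pairs 41091 of the 54613 non-control probe sets with a single symbol, and these were averaged into 19775 genes with no filter on low values. Slopes on log2 of the cells plated and quadratic terms came from limma 3.58.1 (R 4.3.3), two-sided, adjusted by Benjamini-Hochberg across all genes, or across all probe sets for the slopes of single probe sets, and a threshold of 0.05. The value after ± is a standard error. For the slope of a gene, limma draws it towards the spread of all genes. For a pair it comes from the residuals of that pair alone. Slope differences between pairs of the 9 genes were tested two-sided by exact permutation of the densities (Python 3.11.15) and adjusted over the 36 pairs. The 720 orders limit how small a p of this permutation can be, and the smallest was 0.0042. The fits were tested on simulated data. With no replicates, residuals mix variation between dishes, technical noise and departure from a line.

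The 9 genes and all gene lists were chosen with earlier results of these data known. The rule for names took all 9 genes, the 2 steepest genes of each list among those that passed, any gene of the purine list, the 6 of most similar course and the reference genes; other names were added where a count was small or a neighbour or marker was described. Promoters came from RefSeq (GRCh38.p14), in which all 9 symbols matched. Alternatives were other choices of probe sets, centring of the arrays, other density scales, the 3 highest against the 3 lowest densities, robust variances and leaving out each array. The setting with RefSeq-designed probe sets alone was chosen after seeing the data.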

Additional observations from a re-analysis of the deposited data

How the results depend on the processing

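With no probe sets ending in _x_at or _s_at, 2664 genes passed and 1507 fell, against 4220 and 2455 in the fit reported above; 4 of the 8 enzymes left fell, 12 pairs differed, and TYMS (slope −0.10, limma adjusted p = 0.0702) and PAICS (−0.094, adjusted p = 0.135) did not pass. With the 3 highest against the 3 lowest densities, 2259 genes passed, 1351 fell and 3 of the 9 enzymes fell; RRM1 (−0.16, adjusted p = 0.13), RRM2 (−0.64, 0.0558), DUT (−0.21, 0.069) and PAICS (−0.093, 0.0558) did not pass. With RefSeq-designed probe sets alone, chosen after seeing the data, 2323 genes passed and 1427 fell among 9048 genes. RRM1 stayed at −0.16 but did not pass with the median of its probe sets (adjusted p = 0.0551), with centred arrays (0.0559) or with robust variances (0.0537). UMPS passed on the number of cells itself (−0.11, adjusted p = 0.0249). The fibroblast marker DCN turned to −0.0021 without _x_at and _s_at probe sets, where it was 0.075. Leaving out 1 array gave 2388 to 3909 genes that passed, 1362 to 2282 that fell and 2 to 7 of the enzymes, with slopes of −0.22 to −0.096 for RRM1, −0.25 to −0.15 for TYMS, −0.27 to −0.14 for DUT, −0.17 to −0.095 for CAD, −0.17 to −0.078 for UMPS and −0.094 to −0.079 for PAICS. TK1 passed in every setting run for it. For the settings printed as lost calls the cause was not tested; leaving out an array also leaves fewer samples. No paired analysis was possible because each density has 1 array.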
